A study of Mus musculus with 14 samples.

Results

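Expression of 7 genes that lengthen fatty acids or add double bonds to polyunsaturated ones was followed in mouse liver under the SGLT2 inhibitor canagliflozin and under weight-matched caloric restriction. The genes are the elongases Elovl1, Elovl2, Elovl3 and Elovl5 and the desaturase family members Fads1, Fads2 and Fads3. They were chosen by name, as probe sets annotated with exactly 1 of these symbols, and are 7 of the 22180 genes measured. Each of the 7 had a single such probe set. Male C57Bl/6J mice began a 60% high-fat diet (HFD) when 6 weeks old. After 4 weeks on it they were divided into 3 arms for 4 more. The canagliflozin arm received the drug on top of the HFD, at 30 mg/kg by the sample labels and 25 to 30 mg/kg by the protocol (n = 5 arrays). The caloric restriction arm was given 15 to 30% less food to bring its weight to that of the drug arm (n = 5), and the HFD control arm continued on the diet (n = 4). No lean or chow-fed arm was analysed here, so every comparison is between HFD-fed mice. Array medians lay between 4.07 and 4.13 on the log2 scale, any pair of arrays correlated at r from 0.971 to 0.985, and precision is limited by the number of arrays. The labels count mice per arm without tying each array to a mouse, so p-values measure the spread between these arrays.

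Long-chain fatty acids are extended in the endoplasmic reticulum by a cycle whose first and rate-limiting step, condensation with malonyl-CoA, is carried out by the ELOVL enzymes, each with its own range of substrates. FADS2 and FADS1 place double bonds into dietary linoleic and alpha-linolenic acid, in alternation with elongation by ELOVL5 and ELOVL2, and the liver is a main site where arachidonic, eicosapentaenoic and docosahexaenoic acid are made in this way. Several of these genes are known targets of SREBP-1, and polyunsaturated fatty acids, the products of the pathway, are known to restrain SREBP-1.

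The promoters of Fads2 and Elovl5 are shown because these genes varied together from array to array, as described further on. Each stretch is the 250 bases before the annotated transcription start, from RefSeq on build GRCm38.p6, written 5′ to 3′ on the strand of the gene. Fads2 lies on the minus strand at chr19:10101504-10101753 and Elovl5 on the plus strand at chr9:77917115-77917364. Capitals mark matches to any of 6 motifs searched on both strands.
Fads2: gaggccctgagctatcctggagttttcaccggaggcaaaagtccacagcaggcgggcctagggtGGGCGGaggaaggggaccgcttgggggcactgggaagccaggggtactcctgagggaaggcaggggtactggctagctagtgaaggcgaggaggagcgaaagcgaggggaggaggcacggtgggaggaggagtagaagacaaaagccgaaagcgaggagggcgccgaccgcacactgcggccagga
Elovl5: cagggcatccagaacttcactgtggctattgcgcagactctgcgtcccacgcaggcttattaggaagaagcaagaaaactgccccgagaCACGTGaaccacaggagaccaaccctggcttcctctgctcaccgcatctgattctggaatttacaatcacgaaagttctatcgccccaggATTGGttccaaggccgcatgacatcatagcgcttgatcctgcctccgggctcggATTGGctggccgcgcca
The Fads2 stretch held 1 GC box (GGGCGG, first base at -186 from the start). The Elovl5 stretch held 1 E-box (CACGTG, first base at -161) and 2 NF-Y boxes (CCAAT, read as ATTGG, at -71 and -17). Among 32851 promoter windows of 300 bases in the same table, 35.7% held a GC box, 7.15% an E-box and 37.4% an NF-Y box. No match to a sterol regulatory element core (TCACNCCAC, in 1.24% of windows), a nuclear receptor half-site (AGGTCA, 16.3%) or a D-box (TTATGTAA, 0.938%) was found in either stretch, and the marked matches did not overlap. The table held windows for 5 of the 7 genes, and Elovl3 and Fads1 were the other two.

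Of the 7 genes, Elovl3 had the largest differences between arms and the other 6 differed little in mean. Elovl3 extends saturated and monounsaturated acids to very long chains and is known from brown fat, skin and liver. Its log2 value in the canagliflozin arm was 10.75, 11.03, 10.87, 11.45 and 10.88. Under caloric restriction it was 9.78, 10.56, 10.40, 11.78 and 10.66, and in HFD controls 9.32, 9.46, 10.51 and 10.02. All 5 canagliflozin arrays lay above all 4 control arrays, the restricted arrays spanned nearly the whole range of the series, and 3 of 5 of them lay above every control. Elovl3 averaged 11.00 ± 0.27 under canagliflozin (SD, n = 5), 10.64 ± 0.72 under caloric restriction (n = 5) and 9.83 ± 0.55 in HFD controls (n = 4).

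**Figure D1:**
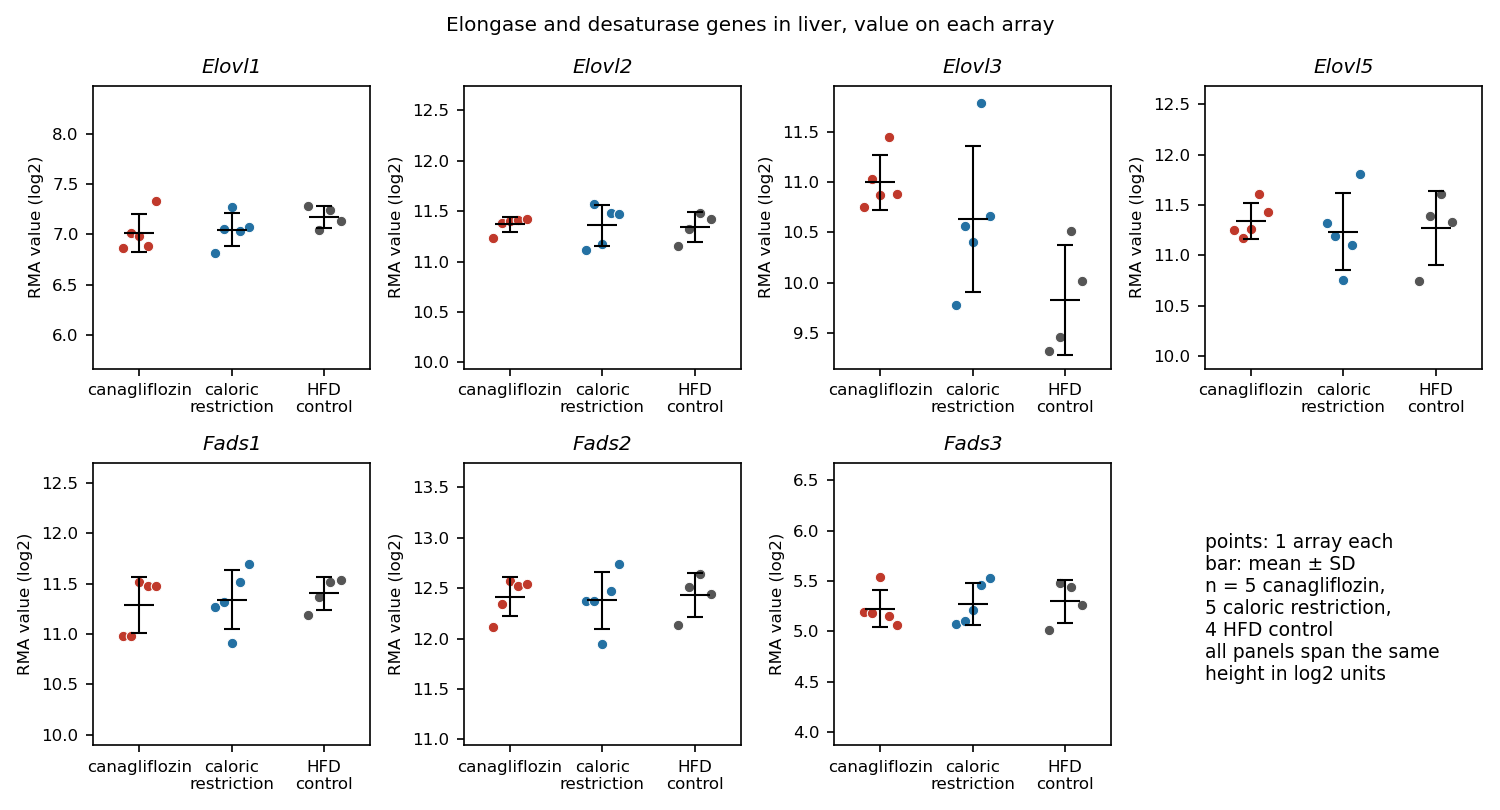
RMA value (log2) of each of the 7 genes on each array, in the canagliflozin, caloric restriction and HFD control arms; points are single arrays, bars are mean ± SD, and every panel spans the same height on the log2 scale. Elovl3 stands at 10.75 to 11.45 under canagliflozin and 9.32 to 10.51 in HFD controls, while the arms of the other 6 genes overlap.

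Canagliflozin was first compared with HFD control. These arms shared the diet but were not matched for weight, so the drug and any difference in weight cannot be told apart here. Elovl3 was 2.25-fold higher, a log2 fold change of 1.17 ± 0.30 (SE, 95% confidence interval 0.54 to 1.80). It ranked 37th of 22180 genes by p but did not pass after adjustment over all of them (limma adjusted p = 0.559). As a single value it gave p = 0.00794 by a two-sided exact permutation test, the smallest that 5 against 4 arrays can give. Only a gene whose arms do not overlap can reach that p, which is not corrected for the 7 genes or the 3 comparisons. No gene of the array passed the adjusted threshold of 0.05 here, so 0 of 7 members stand beside a background of 0% of all genes. At an unadjusted p under 0.05, 1 of 7 members stood beside 6.51% of all genes (1444), and 1 of 7 had arms that did not overlap beside 1.95% of all genes (433); both times the member was Elovl3. The difference was between 1.00 and 1.40 when arrays were left out one at a time, lowest without HFD control replicate 1 and highest without HFD control replicate 3.

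Caloric restriction to matched weight, set against the same HFD controls, gave Elovl3 a log2 fold change of 0.81 ± 0.30 (SE, 95% confidence interval 0.18 to 1.44), or 1.75-fold higher. The arms overlapped, and neither the fit over all genes (limma adjusted p = 0.999) nor the single value (two-sided exact permutation p = 0.103) passed. The value was 0.52 without caloric restriction replicate 4, the array with the highest Elovl3 of the series, and 1.04 without HFD control replicate 3. Again 0 of 7 members passed after adjustment, beside 0% of all genes, 1 of 7 had an unadjusted p under 0.05 beside 3.93% (872 genes), and 0 of 7 had arms apart beside 1.40% (310 genes). Since both comparisons use the same 4 controls, low control values enter both differences.

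Canagliflozin set directly against caloric restriction compares arms of matched weight, which differ both in the drug and in the restriction of food. Elovl3 was 1.28-fold higher under the drug, a log2 fold change of 0.36 ± 0.28 (SE) whose 95% confidence interval ran from -0.24 to 0.95. The canagliflozin arrays lay within the range of the restricted ones, and the difference did not exceed the spread (limma adjusted p = 0.887, two-sided exact permutation p = 0.325). It was lowest, at 0.14, without restricted replicate 1, and highest, at 0.64, without restricted replicate 4. The arm means were in the order canagliflozin, caloric restriction, HFD control, from high to low. Neither pair of neighbours in that order passed after adjustment or by the exact permutation test, although the interval for caloric restriction against HFD control did not include 0. None of the 7 members passed the adjusted threshold, beside 0.00451% of all genes (1 gene), none had an unadjusted p under 0.05 beside 6.05% (1341), and none had arms apart beside 0.929% (206).

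**Figure D2:**
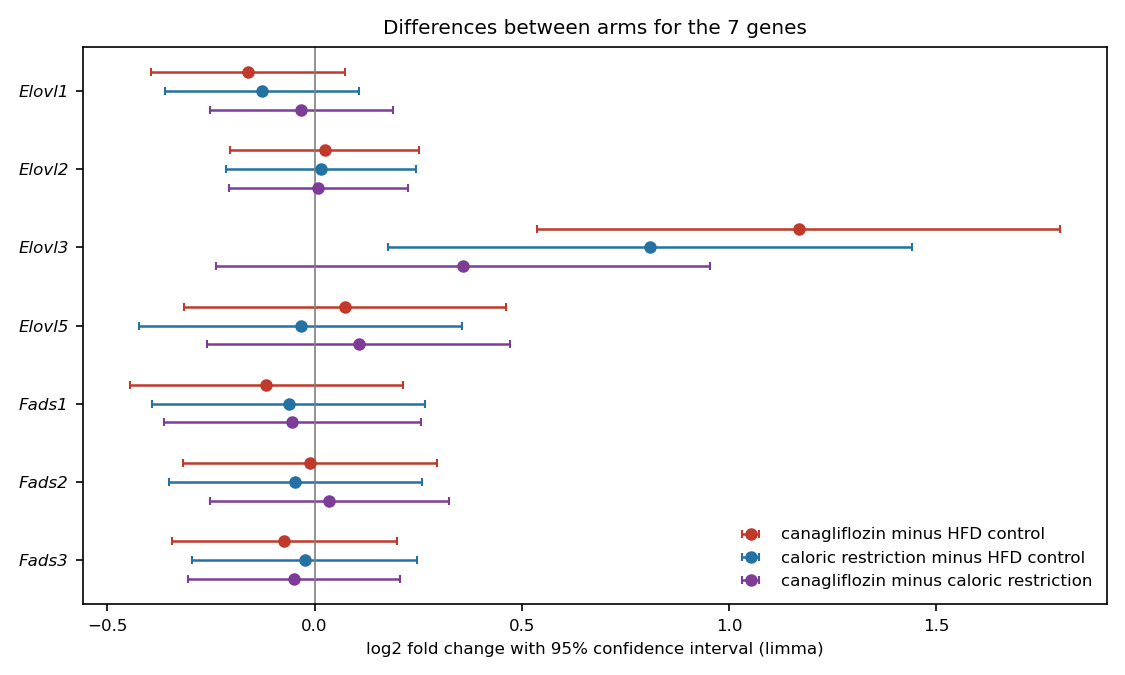
Log2 fold change of each gene (limma, x axis) with its 95% confidence interval, for canagliflozin minus HFD control, caloric restriction minus HFD control and canagliflozin minus caloric restriction. The interval of Elovl3 clears 0 in the comparisons with HFD control (0.54 to 1.80 and 0.18 to 1.44), and the intervals of the other 6 genes include 0 in all 3 comparisons.

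Fads2 carries out the first desaturation of the polyunsaturated pathway. It measured 12.11, 12.34, 12.57, 12.52 and 12.54 under canagliflozin, 12.37, 12.37, 11.95, 12.47 and 12.74 under caloric restriction, and 12.13, 12.51, 12.64 and 12.44 in HFD controls. High and low arrays occurred in every arm. The log2 fold change was -0.011 for canagliflozin against HFD control (95% confidence interval -0.32 to 0.29) and -0.046 for caloric restriction against HFD control (-0.35 to 0.26). Between canagliflozin and caloric restriction it was 0.035 (-0.25 to 0.32). As a ratio, the interval for canagliflozin against HFD control ran from 0.803 to 1.23, so a change within that range remains compatible with these arrays.

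Fads1, which acts after Fads2 and completes arachidonic and eicosapentaenoic acid, measured 10.98, 10.98, 11.52, 11.48 and 11.48 under canagliflozin. It measured 11.27, 11.32, 10.91, 11.52 and 11.69 under caloric restriction and 11.19, 11.37, 11.52 and 11.54 in HFD controls. Of the canagliflozin arrays 2 were below every control and the other 3 were within the control range. Its differences were -0.12 ± 0.16 (SE) for canagliflozin against HFD control, -0.063 ± 0.16 for caloric restriction against HFD control and -0.054 ± 0.15 for canagliflozin against caloric restriction. Fads3, a relative that desaturates sphingoid bases, averaged 5.22 ± 0.18 under canagliflozin, 5.28 ± 0.21 under caloric restriction and 5.30 ± 0.21 in HFD controls (SD). Its values were above the array medians (4.07 to 4.13) and below the upper quartiles (5.77 to 5.82). The differences between arms lay between -0.073 and -0.024.

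Elovl5, which elongates the products of Fads2, measured 11.25, 11.17, 11.26, 11.61 and 11.43 under canagliflozin. Under caloric restriction it measured 11.32, 11.19, 10.76, 11.10 and 11.81, and in HFD controls 10.75, 11.39, 11.61 and 11.33. The lowest arrays were caloric restriction replicate 3 and HFD control replicate 1, and no canagliflozin array was as low. The means were 11.34 ± 0.18 under canagliflozin, 11.24 ± 0.38 under caloric restriction and 11.27 ± 0.37 in HFD controls (SD). The differences were 0.073 ± 0.18 (SE) for canagliflozin and -0.033 ± 0.18 for caloric restriction, each against HFD control, and the smaller spread under the drug was not tested.

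Elovl2, which carries out the last elongations towards docosahexaenoic acid, varied least, with a range of 0.456 over the 14 arrays. It averaged 11.37 ± 0.08 under canagliflozin, 11.36 ± 0.21 under caloric restriction and 11.34 ± 0.15 in HFD controls (SD), and its 95% confidence interval for canagliflozin against HFD control (-0.20 to 0.25) was the narrowest of the 7 genes in that comparison. Elovl1, which makes very long saturated and monounsaturated acids for sphingolipids, was 6.86, 7.01, 6.98, 6.88 and 7.33 under canagliflozin, against 7.28, 7.04, 7.24 and 7.13 in HFD controls. Under caloric restriction it was 6.81, 7.05, 7.27, 7.03 and 7.07. Of the canagliflozin arrays 4 of 5 lay below every control and the remaining one, replicate 5, lay above them all. The difference was -0.16 ± 0.11 (SE, limma adjusted p = 0.856), and it was -0.24 without canagliflozin replicate 5. By the RefSeq gene table Elovl1 overlaps Cdc20 and Elovl3 overlaps Pitx3, and probe positions were not analysed here. Pitx3 averaged 4.01 ± 0.12 under canagliflozin, 4.01 ± 0.08 under caloric restriction and 4.12 ± 0.05 in HFD controls (SD).

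Although their arm means were close, Fads1, Fads2 and Elovl5 correlated from array to array within arms. Their 3 pairs were the ones that passed by r among 28 pairs, 2 of them also by rank. Fads1 and Fads2, neighbours on chromosome 19 with Fads3 on the other side of Fads2, had the highest correlation. Deviations from the arm means over 14 arrays gave r = 0.909 (two-sided permutation p = 0.00023, adjusted p = 0.00644 over 28 pairs) and rho = 0.890 (permutation p = 0.00029, adjusted p = 0.00812). It was 0.913 without the 2 arrays farthest from the median of Fads1. Within arms r was 0.909 under canagliflozin (n = 5), 0.981 under caloric restriction (n = 5) and 0.836 in HFD controls (n = 4). Elovl5 and Fads2 gave r = 0.857 (permutation p = 0.00216, adjusted p = 0.0302), rho = 0.771 (adjusted p = 0.0484) and r = 0.767 without the 2 farthest arrays. This pair was less even between arms, at r = 0.506 under canagliflozin, 0.921 under caloric restriction and 0.998 in HFD controls. Elovl5 and Fads1 gave r = 0.729 (permutation p = 0.00498, adjusted p = 0.0465), but rho = 0.631 did not pass (adjusted p = 0.109). Their r was 0.647 without the 2 farthest arrays, and 0.662, 0.839 and 0.87 within the arms in the same order.

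These correlations are bounded by the number of arrays and depended on the order of the arrays as deposited. With a linear term for that order also removed, an alternative chosen after the data were seen, r was 0.843 for Fads1 and Fads2, 0.788 for Elovl5 and Fads2 and 0.576 for Elovl5 and Fads1, and 0 of 28 pairs passed (permutation adjusted p = 0.0818, 0.0962 and 0.297). Leaving out single arrays left between 1 and 6 pairs past the threshold, against 3 with all arrays. A single pair remained without HFD control replicate 1, 2, 3 or 4, or without caloric restriction replicate 3 or 5, and r of Fads1 and Fads2 was between 0.865 and 0.950 over all 14 omissions. Whether probes of the related Fads genes bind each other's transcripts was not tested.

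**Figure D3:**
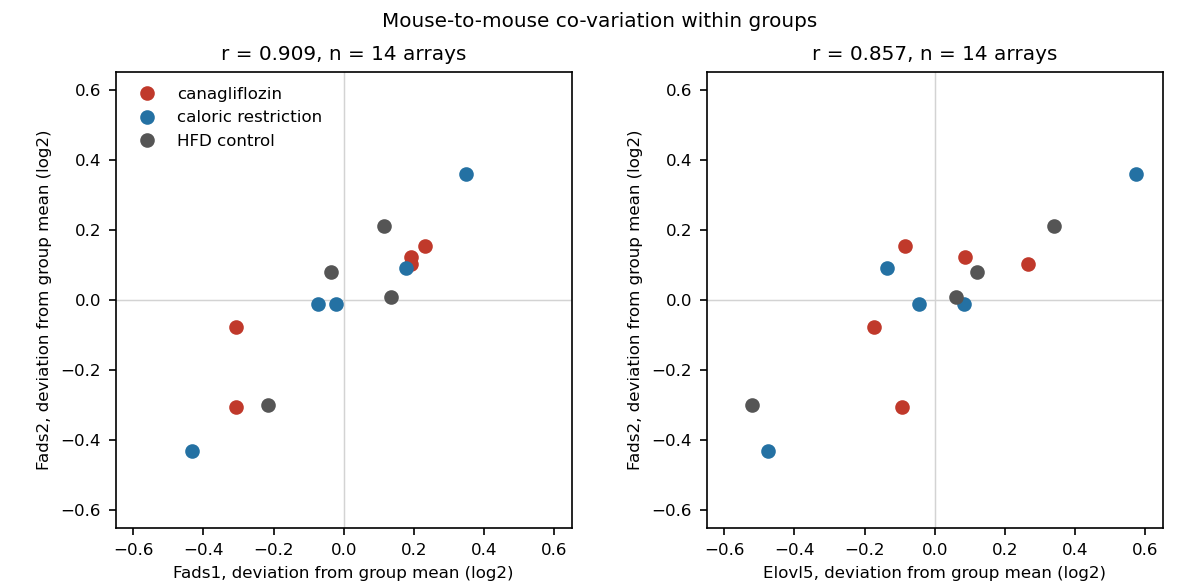
Deviation of Fads2 from its arm mean (log2, y axes) against that of Fads1 (left, r = 0.909) and of Elovl5 (right, r = 0.857), 1 point per array, coloured by arm (canagliflozin, caloric restriction, HFD control). Within arms, r was 0.909, 0.981 and 0.836 on the left and 0.506, 0.921 and 0.998 on the right, in that order of arms.

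Elovl2 leaned the same way without passing, at r = 0.701 with Fads2 and 0.666 with Fads1 (permutation adjusted p = 0.0789 for both). Elovl2 and Elovl3 gave r = 0.696 (permutation adjusted p = 0.108), and by rank rho = 0.802 (permutation adjusted p = 0.0484). In all, 17 of the 21 pairs of members had a positive r, and the 4 negative ones each involved Elovl1. Srebf1, which encodes the SREBP-1 precursor, had no correlation with any of the 7 genes that passed. Its r ran from -0.34 with Elovl3 (permutation p = 0.117, adjusted p = 0.345) to 0.10 with Fads3. With Fads3 it was -0.47 without canagliflozin replicate 3. Among all 22179 other genes, Fads2 ranked 3rd by r of deviations with Fads1, and Elovl5 ranked 14th with Fads2.

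**Figure D4:**
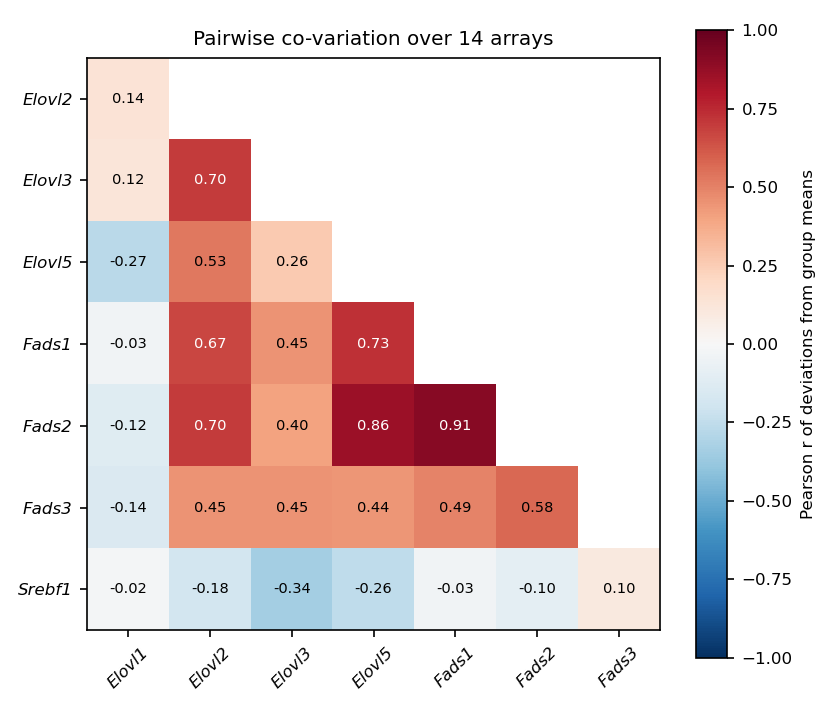
Pearson r of deviations from arm means over 14 arrays for each pair of the 7 genes, with Srebf1 in the bottom row; red is positive and blue negative. The values among Elovl2, Elovl5, Fads1 and Fads2 run from 0.53 to 0.91, and the row of Srebf1 from -0.34 to 0.10.

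The genes most like each member over the 14 arrays were taken from 8770 named genes with a mean log2 value of at least 5, as a description in which arms and arrays are shared. Elovl3 was closest to Irf2bp2, a transcriptional corepressor (r = 0.885), and Sdc1, the cell surface proteoglycan syndecan-1 (r = 0.884). Sdc1 averaged 7.12 ± 0.08 under canagliflozin, 6.89 ± 0.12 under caloric restriction and 6.79 ± 0.14 in HFD controls (SD). Its canagliflozin and control arrays did not overlap, beside 1.95% of all genes. Because Sdc1 was picked for its r with Elovl3 with arm differences kept in, this is not independent of Elovl3. Fads1 was closest to Gas6 (r = 0.912) and Pmvk, an enzyme of the mevalonate pathway (0.863), and Fads2 to Lipa, the lysosomal acid lipase (0.881), and Slc16a7 (0.879). Elovl5 was closest to Acss3 (0.896) and Crat, carnitine acetyltransferase (0.859). For Elovl2 they were Clcn4 (0.908) and Zfhx4 (0.865), for Fads3 Cdk6 (0.857) and Selenoi (0.830), and for Elovl1 Rpgrip1l (0.770) and Usb1 (0.766).

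The rest of the elongation cycle showed no common direction. Of 9 measured genes of the cycle and other elongases, 4 were higher and 5 lower in mean under canagliflozin than in HFD controls, with a median log2 fold change of -0.042 beside -0.00085 over all genes, and none passed. Hacd2, a dehydratase of the cycle, was lower on all 5 canagliflozin arrays than on any control (9.53 ± 0.20 against 9.82 ± 0.07, SD, limma adjusted p = 0.697). Arms were apart for 1.95% of all genes in that comparison, and Hacd2 was named for its small p within the list. Elovl7 differed by -0.17 ± 0.12 (SE) and Elovl4 by -0.12 ± 0.10, both at values below the array medians. Tecr, the reductase that ends the cycle, averaged 10.29 ± 0.27 under canagliflozin and 10.63 ± 0.22 under caloric restriction (SD), a difference of -0.33 ± 0.15 (SE, limma adjusted p = 0.811).

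Among the other desaturases and their electron carriers, 4 of 9 were higher and 5 lower under canagliflozin than in HFD controls (median -0.025). Scd1, which makes monounsaturated acids and shares SREBP-1 as a known regulator with the Fads genes, averaged 11.46 ± 0.79 under canagliflozin, 12.45 ± 0.58 under caloric restriction and 12.50 ± 0.31 in HFD controls (SD). Scd1 thus differed by -1.04 ± 0.33 (SE, limma adjusted p = 0.596) in the drug comparison in which Fads2 differed by -0.011 ± 0.15, although the difference between the 2 genes was not tested. For Scd1, canagliflozin replicate 3 (12.72) was within the control range, and the other 4 arrays of the arm (10.63 to 11.55) lay below every control. Degs1, the dihydroceramide desaturase, differed by 0.26 ± 0.11 (SE). Cyb5r3, which passes electrons from NADH to cytochrome b5, was lower on all 5 canagliflozin arrays than on any restricted one (11.48 ± 0.18 against 11.77 ± 0.08, SD, limma adjusted p = 0.809). Between these arms 0.929% of all genes did not overlap, and Cyb5r3 too was named for its small p.

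Regulators were mixed as well, with 4 of 12 higher and 8 lower under canagliflozin than in HFD controls (median -0.066) and none past the threshold. Srebf1 averaged 8.02 ± 0.65 under canagliflozin, 8.52 ± 0.28 under caloric restriction and 8.64 ± 0.17 in HFD controls (SD), differing by -0.62 ± 0.24 (SE) between the drug and control arms. Canagliflozin replicate 3 was at 8.95, above every control, and the other 4 arrays of the arm (7.21 to 8.24) lay below every control. Insig2, which retains SREBP precursors in the endoplasmic reticulum, was above every control on all 5 canagliflozin arrays (8.41 ± 0.21 against 8.05 ± 0.11, SD, limma adjusted p = 0.731). It was named for its small p, and 1.95% of all genes had arms apart in that comparison. Mlxipl, which encodes the sugar-sensing factor ChREBP, differed by -0.32 ± 0.15 (SE), and Ppara, which encodes the fatty acid sensor PPARα, by -0.064 ± 0.13.

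Genes that supply acyl-CoAs, that shorten polyunsaturated acids in peroxisomes or that place them in phospholipids had 5 of 10, 6 of 8 and 2 of 10 members higher under canagliflozin than in HFD controls, again with none passing. The fatty acid transport protein gene Slc27a1 differed by 0.75 ± 0.19 (SE, limma adjusted p = 0.559), with 4 of 5 canagliflozin arrays above all controls. Acsl4, which prefers arachidonic acid, averaged 8.20 ± 0.33 under canagliflozin and 7.86 ± 0.25 under caloric restriction (SD), a difference of 0.34 ± 0.15 (SE). The peroxisomal thiolase gene Acaa1a differed by 0.31 ± 0.14 (SE) between canagliflozin and HFD control. The phospholipid acyltransferase gene Mboat7 differed by -0.083 ± 0.093 in the same comparison.

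Elovl3 in mouse liver is known to follow the circadian clock and to be higher in males, so genes of both kinds were set beside it. Of 15 clock and output genes, 6 were higher and 9 lower under canagliflozin than in HFD controls, 9 were higher and 6 lower under caloric restriction than in HFD controls, and 2 were higher and 13 lower under canagliflozin than under caloric restriction. None passed, and the hour of tissue collection was not analysed here. Per3, Dbp and Tef differed by -0.31 ± 0.13, -0.41 ± 0.19 and -0.26 ± 0.12 (SE) between canagliflozin and HFD control. Caloric restriction replicate 4, the array with the highest Elovl3, had the highest Arntl of its arm (6.70, against 4.57 to 5.48 on the other 4). It had the arm's lowest Dbp (8.94, against 9.53 to 9.94), Ciart (7.18, against 7.65 to 7.91) and Per3 (6.65, against 6.96 to 7.09), but Per1 was lowest on replicate 1. In HFD controls, replicate 3 had the highest Elovl3 and also the highest Dbp (10.05, against 9.41 to 9.90) of the arm. The same control had the highest Ciart (7.90, against 6.83 to 7.35). Under canagliflozin, Dbp and Ciart were lowest on replicate 3. Replicate 4, with the highest Elovl3 of that arm, had the lowest Tef (6.51, against 6.78 to 6.93). Of 14 other male-biased genes, 2 were higher and 12 lower in the canagliflozin comparison with HFD control (median -0.14), and 1 was higher and 13 lower under caloric restriction (median -0.24), while Elovl3 was higher in mean in both. Cyp2u1 differed by -0.50 ± 0.20 (SE) under canagliflozin. Female-biased genes split as 6 higher and 5 lower in both comparisons with HFD control. The part of either programme in the Elovl3 difference was not tested.

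The liver label fits the arrays, with a mean log2 value over 7 hepatocyte markers of 11.7 to 11.8 in every arm. Elovl3 is also a gene of brown fat, and the mean over 7 adipocyte markers was 3.83 to 4.29 under canagliflozin, 3.89 to 4.19 under caloric restriction and 3.96 to 4.18 in HFD controls. Of the 7 adipocyte markers, 4 were higher and 3 lower in mean under canagliflozin than in HFD controls. Cidec, a lipid droplet protein gene that fatty liver also expresses, averaged 6.03 under canagliflozin, 5.69 under caloric restriction and 5.45 in HFD controls, in the same order of arms as Elovl3 and above the array medians. Plin1 (4.66, 4.39 and 4.60 in the same arms) and Retn (4.40, 4.39 and 4.45) were also above the medians. Adipoq (3.09, 3.13 and 3.10), Ucp1 (3.68, 3.65 and 3.58), Cidea (4.01, 4.04 and 4.01) and Lep (2.73, 2.97 and 3.15) were below them. The mean over 7 macrophage markers was 6.85 to 7.32 under canagliflozin, 6.27 to 7.15 under caloric restriction and 6.35 to 7.47 in HFD controls. Of these 7, 6 were higher in mean under canagliflozin than in HFD controls (median difference 0.13) and 7 were higher than under caloric restriction (median 0.21), none past the threshold. Clec4f, a Kupffer cell marker, averaged 8.03 under canagliflozin, 7.82 under caloric restriction and 7.90 in HFD controls. The part of these markers in the Elovl3 difference was not tested. Stellate, endothelial, cholangiocyte, lymphocyte and gut or pancreas markers overlapped between arms. In whole liver, fewer cells of a type and less RNA per cell cannot be told apart.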

How the data were processed

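Liver RNA (250 ng) was labelled with the Affymetrix WT Plus protocol, per the labels' protocols. The deposited log2 values per probe set are RMA output of Expression Console (Affymetrix), as the authors state per the submitters' processing notes. RMA equalises array distributions, so a global shift would not be seen. The sources used here give no software version or build. Arrays carry no depth.

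Of 41345 probe sets, 23521 had 1 gene symbol, 1814 several and 16010 none. For genes with several, the probe set with the highest mean was used. All 22180 genes on all 14 arrays were fitted with limma 3.58.1 in R 4.3.3 (group means, eBayes), without a filter, with Benjamini-Hochberg adjustment per comparison and a threshold of 0.05. Single values were tested by exact permutation of arm labels. Co-variation used deviations from arm means, 100000 permutations within arms and adjustment over 28 pairs. The fit and the co-variation test were tested on simulated data.

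Named beside the members were up to 3 genes of smallest p per pathway list and comparison, with Srebf1, Scd1 and Ppara, and the 2 genes most correlated with each member. The text gives a part of them. Members and lists were chosen with earlier results of these data known. Replicate numbers are shared between arms. Of 13 same-numbered pairs across arms, 3 had deviations correlated above 0.1 (range -0.089 to 0.198). They were not compared with differently numbered pairs, so these values cannot decide whether the numbers mark pairs. The numbers were not taken as pairs in the main fit. Alternatives were the 2 arms alone, filters at a mean of 5 or 6, median centring, cyclic loess, trended robust variance, array weights, replicate block, probe set means, all probe sets, deposited order and omission of each array.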

Additional observations from a re-analysis of the deposited data

Results flagged for a closer look

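Values far from the rest of their arm were sought by Dixon's test in 219 combinations of a gene and an arm, of which chance would mark about 1 in 20, and 17 were marked. Of the 21 that concern the 7 genes, 2 were marked, both under canagliflozin. Elovl2 was 11.23 on replicate 1, against 11.38 to 11.42 on the other arrays of the arm, and Fads3 was 5.54 on replicate 3, against 5.06 to 5.19.

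Among the other named genes, canagliflozin replicate 1 was low for Zfhx4 (6.24) and Slc16a7 (8.37), replicate 2 high for Scp2 (12.65) and replicate 3 high for Acsl5 (9.95). In the caloric restriction arm, replicate 4 was high for Cyb5r3 (11.90) and Sdc1 (7.10) and low for Fabp1 (12.26), replicate 5 was low for Mlxipl (9.22) and Cyp2f2 (12.48), and replicate 2 was high for Sult3a1 (2.18). In HFD controls, replicate 1 was low for Per3 (6.82) and Lipa (10.11), replicate 3 high for Acaa1a (7.96) and Lpcat1 (4.98) and replicate 4 high for Mboat7 (7.20).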

How the results depend on the processing

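No member passed the adjusted threshold in any comparison under any of the 25 other settings of the fit. Elovl3 kept a positive difference in all 3 comparisons, with limma adjusted p between 0.274 (deposited order as a covariate) and 0.772 for canagliflozin against HFD control, from 0.976 upward for caloric restriction against HFD control and between 0.761 and 0.965 for canagliflozin against caloric restriction. Its exact permutation p of 0.00794 for canagliflozin against HFD control is uncorrected and is the smallest the design allows. Only a gene whose arms do not overlap (1.95% of all genes) can give it, and the share of genes that do was not counted.

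The replicate block gave Elovl3 differences of 1.18, 0.82 and 0.36 in the 3 comparisons and turned 2 small values, Elovl5 under canagliflozin (-0.011) and Elovl2 under caloric restriction (-0.0052), each against HFD control. It changed no call of a member. It left 4 co-variation pairs past the threshold, and r of 0.919 for Fads1 and Fads2, while Elovl5 and Fads1 no longer passed (permutation adjusted p = 0.0703). Other turned values, all near 0, were Fads2 under canagliflozin against HFD control with median centring (0.0094), cyclic loess (0.0062) and deposited order (0.020), Elovl2 under caloric restriction against HFD control with deposited order (-0.0050), and, for canagliflozin against caloric restriction, Elovl2 with array weights (-0.0069) and Fads1 with deposited order (0.024). The cause was not tested.

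Leaving out each array gave these ranges of log2 fold change where a sign turned. For canagliflozin against HFD control they were -0.042 to 0.071 (Elovl2), -0.10 to 0.19 (Elovl5) and -0.11 to 0.065 (Fads2). For caloric restriction against HFD control they were -0.051 to 0.077 (Elovl2), -0.21 to 0.086 (Elovl5), -0.15 to 0.046 (Fads1), -0.15 to 0.063 (Fads2) and -0.12 to 0.037 (Fads3). For canagliflozin against caloric restriction they were -0.11 to 0.023 (Elovl1), -0.053 to 0.061 (Elovl2), -0.013 to 0.25 (Elovl5), -0.16 to 0.034 (Fads1), -0.074 to 0.13 (Fads2) and -0.13 to 0.014 (Fads3). The r of Fads3 and Srebf1 ran from -0.47 to 0.24.

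Genes past the threshold over the whole array numbered 0 for canagliflozin against HFD control, 1 with either filter or with deposited order, and 0 to 12 when arrays were left out. For caloric restriction against HFD control the count was 0, and 1 with deposited order. For canagliflozin against caloric restriction it was 1, with 0 from the 2 arms alone or the filter at 6, 2 with the replicate block, and 0 to 16 when arrays were left out, both maxima coming without canagliflozin replicate 3. Co-variation pairs past the threshold numbered 3, with 5 after median centring, 0 after removal of deposited order and 1 to 6 when arrays were left out.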
